A study of Mus musculus with 8 samples.

Results

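The 30 genes described here are mouse HOXL homeobox genes outside the Hoxb and Hoxd clusters. They are 10 Hoxa genes and their neighbour Evx1, 9 Hoxc genes, the ParaHox genes Gsx1, Gsx2, Pdx1, Cdx1 and Cdx2, and Mnx1, Gbx1, Gbx2, Meox1 and Meox2. They were taken by name, not by their signal, from 34614 protein-coding and lncRNA genes of the RefSeq annotation, and all 30 are autosomal. Genes of a cluster lie under a shared peak, so the 30 genes make up 12 separate loci.

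Chromatin immunoprecipitation and sequencing of H3K27me3 was done in cultured female neural stem cells from E14.5 embryos of a C57BL/6 129/Castaneus mix. All lines started as Smchd1 del/fl, with a deleted and a floxed allele, and all carried the Xist deltaA allele on a maternal 129 X and wild-type Xist on a paternal Castaneus X. The del/del group had received the retrovirus MSCV-Cre-puro, with puromycin from 24 h and harvest 7 days after transduction, whereas the del/fl group was left untransduced. Each genotype had 2 H3K27me3 libraries, and each library had a whole-cell extract as its control. Smchd1 loss, viral transduction and puromycin selection cannot be told apart in this design. The labels do not state that the libraries of a genotype came from different embryos, and p-values therefore describe only the spread between these samples.

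HOXL genes encode homeodomain transcription factors. Hoxa and Hoxc genes give positional identity along the body axis and in the limbs, and in the nervous system they are expressed in the hindbrain and spinal cord. H3K27me3 is laid down by Polycomb repressive complex 2, and Hox clusters are its classical targets in cells that keep these genes silent. Smchd1 encodes a chromatin protein of the SMC family that acts on the inactive X chromosome and on some autosomal gene clusters.

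Promoters of 4 genes are printed to show how CG content varied under the mark, with 9 CG dinucleotides in 300 bases at Hoxa2 and 45 at Hoxa13. They are the RefSeq GRCm38.p6 sequences from 250 bases before to 50 bases after the start of each gene, and capitals mark CG.
Hoxa2, chr6:52164782-52165081, minus strand: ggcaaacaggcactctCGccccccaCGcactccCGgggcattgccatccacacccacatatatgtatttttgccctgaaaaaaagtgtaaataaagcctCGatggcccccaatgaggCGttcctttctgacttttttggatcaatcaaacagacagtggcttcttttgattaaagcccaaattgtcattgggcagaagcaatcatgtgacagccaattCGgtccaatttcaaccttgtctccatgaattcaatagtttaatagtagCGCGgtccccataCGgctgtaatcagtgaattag
Hoxa13, chr6:52260831-52261130, minus strand: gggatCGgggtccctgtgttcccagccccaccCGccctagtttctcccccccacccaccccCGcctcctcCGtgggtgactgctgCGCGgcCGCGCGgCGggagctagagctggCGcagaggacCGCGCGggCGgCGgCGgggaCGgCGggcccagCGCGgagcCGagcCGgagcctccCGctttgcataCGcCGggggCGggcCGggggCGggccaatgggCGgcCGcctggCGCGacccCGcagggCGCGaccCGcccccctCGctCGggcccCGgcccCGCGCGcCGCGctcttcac
Cdx2, chr5:147307200-147307499, minus strand: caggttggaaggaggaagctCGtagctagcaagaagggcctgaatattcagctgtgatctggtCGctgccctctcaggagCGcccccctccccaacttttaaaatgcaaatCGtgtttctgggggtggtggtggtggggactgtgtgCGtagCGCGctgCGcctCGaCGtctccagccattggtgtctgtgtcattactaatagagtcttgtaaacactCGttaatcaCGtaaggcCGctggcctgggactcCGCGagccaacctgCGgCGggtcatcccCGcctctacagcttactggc
Meox2, chr12:37108290-37108589, plus strand: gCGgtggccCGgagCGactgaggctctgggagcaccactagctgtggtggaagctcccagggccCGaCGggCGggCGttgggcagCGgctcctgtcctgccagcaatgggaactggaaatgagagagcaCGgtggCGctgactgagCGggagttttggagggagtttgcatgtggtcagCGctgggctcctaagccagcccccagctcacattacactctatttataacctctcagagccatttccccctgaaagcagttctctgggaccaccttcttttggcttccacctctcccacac

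A promoter sequence was found for 18 of the 30 genes, with 19 promoters because Hoxa10 has 2. None was found for Hoxa4, Cdx1, Gbx1, Meox1 or any Hoxc gene but Hoxc4. Cdx1, Gbx1 and Meox1 were not fully covered, so most of the partly covered genes are left out here. All 19 promoters were 100% covered by peaks in all 4 libraries. Their CG counts ran from 4 at Hoxa9 to 45 at Hoxa13 with a median of 17, and CG was counted on the printed strand, where it reads the same on the opposite one. Of all 32851 promoters in the table, 31.4% held at least 17 CG, and the median was 7. The 1544 autosomal promoters touched by a peak in all 4 libraries had a median of 15, close to that of the HOXL promoters. The other 29852 autosomal promoters had a median of 7.

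**Figure D1:**
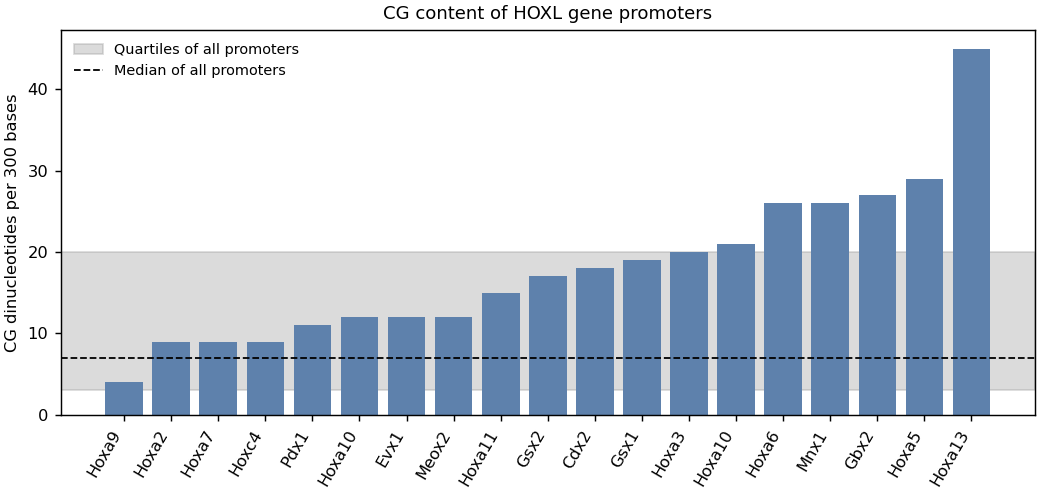
CG dinucleotides per 300 bases (vertical axis) in the 19 promoters of 18 HOXL genes (bars), with the median and quartiles of all promoters as a dashed line and a grey band. Hoxa9 has 4, Hoxa13 has 45, and the median of all promoters is 7.

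The H3K27me3 libraries contributed 14064030 and 12819919 tags for del/del and 13288499 and 11793402 for del/fl. The lists of broad peaks held 32971 and 39982 regions for del/del and 36934 and 45566 for del/fl. The measures read over each gene with 2.5 kb added at both ends were the percent of bases covered by peaks, the mean peak pileup per 1000000 tags used, the unit of all pileup values here, and the length of the longest peak. Pileup is the mean number of stacked tags over a whole broad peak, so genes under the same peak have the same value. Of the neural stem cell markers, 11 of 13 (Sox2, Nes and Vim among them) had no peak in any library, and the other 2, Msi1 and Prom1, had at most 2.69% and 1.51% cover. All 3 pluripotency markers also lacked a peak, as did 23273 of all 34614 genes. Mean cover of the markers was 22.3 to 26.3% for neurons, 17.4 to 20.9% for astrocytes and oligodendrocytes, 0.470 to 1.99% for microglia and blood, 20.5 to 21.6% for mesenchymal cells and 0.742 to 2.75% for endothelial cells. Cover is not expression, so these values do not measure how many cells of each type were present.

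Of the 30 genes, 26 were covered from end to end, flanks included, in all 4 libraries. Over all 34614 genes this was so for 293, or 0.846%, and over the 33073 autosomal genes for 245, or 0.741%. The 4 exceptions were Cdx1, Gbx1, Meox1 and Meox2. Complete cover held for the same number of genes with peaks of −log10 q of at least 5 and with the gene body alone, and for 23 with 5 kb added at both ends.

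Hoxa genes and Evx1 lay under 1 broad peak in every library. Hoxa2 and Hoxa3 pattern the hindbrain and neck, Hoxa4 to Hoxa9 the trunk, and Hoxa10, Hoxa11 and Hoxa13 the urogenital tract and limb, while Evx1 encodes an even-skipped related homeodomain factor of spinal cord interneurons. The peak measured 189.9 and 186.7 kb for del/del and 193.0 and 187.3 kb for del/fl, and it was the second longest autosomal peak in each list. Its position was chr6:52143230-52333122 in del/del 1, chr6:52146246-52332906 in del/del 2, chr6:52142188-52335223 in del/fl 1 and chr6:52142700-52330042 in del/fl 2. The stretch common to all 4 libraries was 183.8 kb, or 95.2% of their union. The mean difference in length, del/del minus del/fl, was −1.91 kb, the groups overlapped, and p was 0.667 in an exact permutation test (two-sided), where 2 against 2 libraries cannot go below 0.333.

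Pileup over the Hoxa peak was 2.23 and 2.38 for del/del and 2.25 and 2.57 for del/fl. The genotypes overlapped, the difference of means was −0.105, and p was 0.667 in the exact permutation test. Only 0.198 to 0.392% of autosomal peaks in a library had a higher pileup. The enrichment over local background given by the authors' peak caller was 12.7 to 13.6 over the 4 libraries, and the genotypes overlapped there too.

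The edges of the Hoxa peak differed by a few kilobases between libraries. It began 19.2 and 16.2 kb before the lower-coordinate end of Hoxa2 for del/del and 20.2 and 19.7 kb before it for del/fl. These groups did not overlap, and p was 0.333 in the exact permutation test, the smallest possible. In del/del 2, however, a separate peak at chr6:52142010-52145323 was split from the main one by 0.922 kb, and with that peak added its edge lay beyond those of the other 3 libraries. Beyond this edge a 100-kb stretch had 0% cover in 3 libraries and 0.178% in del/del 2. At the other edge the peak spanned the 52.6 kb between Hoxa13 and Evx1 and ended 14.73 and 14.52 kb past Evx1 for del/del and 16.8 and 11.7 kb past it for del/fl. Of the next 100 kb there, 3.24 and 3.21% was covered for del/del and 3.94 and 8.63% for del/fl.

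The Hoxa peak also holds Mir196b and the Hoxc peak holds Mir196a-2 and Mir615, genes of microRNAs. The 5′ arms of the miR-196 microRNAs, which are known to target Hox transcripts, are printed because the clusters share their seed, bases 2 to 8, in capitals.
mmu-miR-196b-5p (Hoxa, chr6:52230129-52230150, minus strand): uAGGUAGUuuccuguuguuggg
mmu-miR-196a-5p (Hoxc, chr15:102973365-102973386, plus strand): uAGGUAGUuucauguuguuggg
Both carry the seed AGGUAGU, and both lie in the part of each domain common to all 4 libraries.

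**Figure D2:**
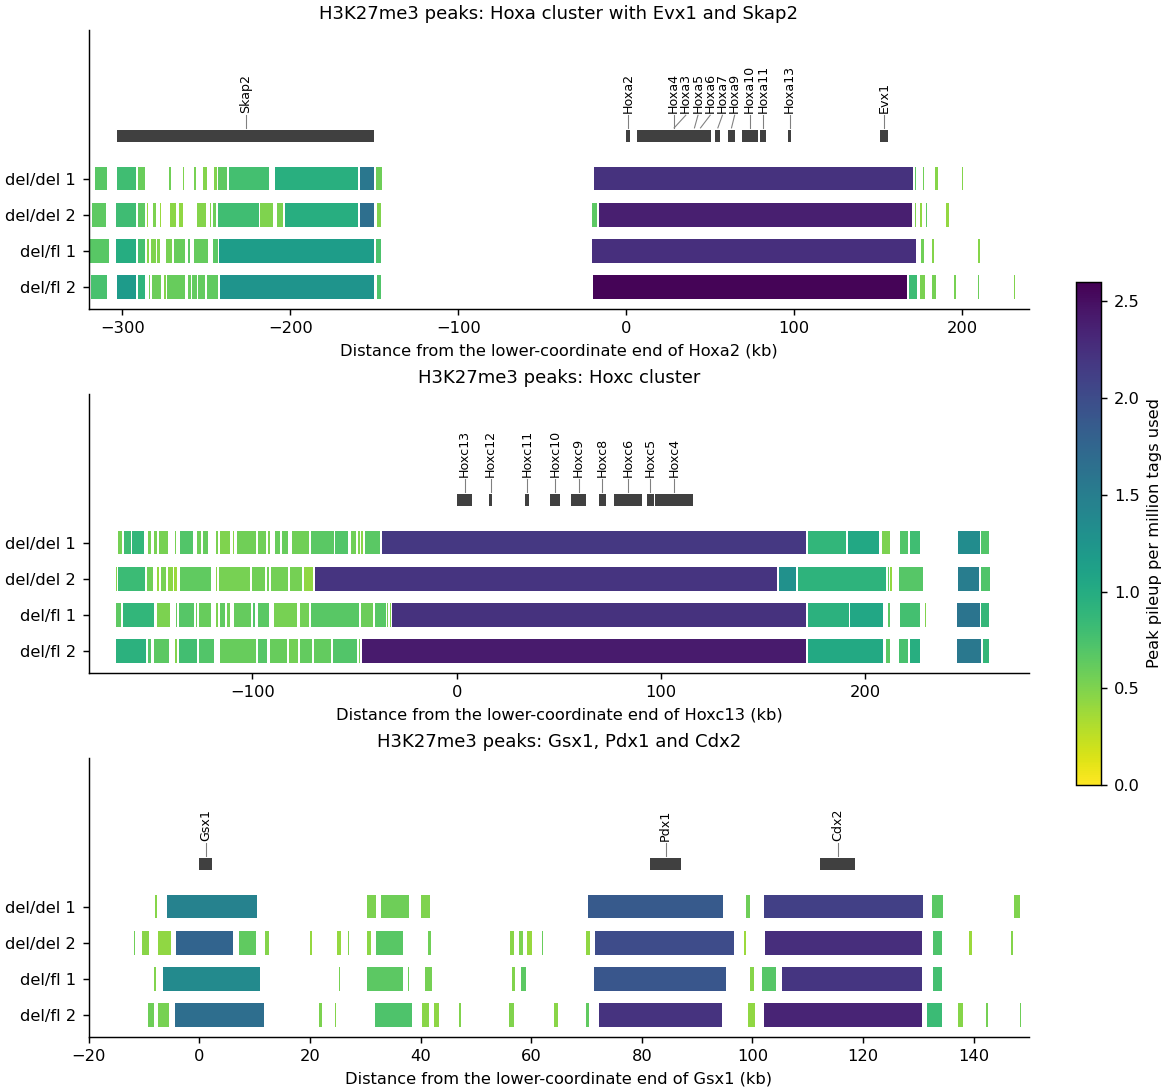
Deposited H3K27me3 peaks (coloured bars, pileup per 1000000 tags used) in each library along the Hoxa, Hoxc and Gsx1 to Cdx2 regions, with genes as grey bars and distance in kb on the horizontal axis. Hoxa and Evx1 lie under 1 peak of 187 to 193 kb with almost no cover between it and Skap2, the nearest protein-coding gene at lower coordinates, and the Hoxc peak of 202 to 226 kb is flanked by weaker peaks.

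Hoxc genes shared a peak that was the longest autosomal one in each list. Hoxc4 to Hoxc8 act in the cervical and thoracic region, Hoxc9 and Hoxc10 in the thoracic and lumbar spinal cord, and Hoxc13 in hair and nail. The peak measured 207.2 and 226.2 kb for del/del and 202.2 and 217.1 kb for del/fl. The groups overlapped, the difference of means was 7.04 kb, and p was 0.667 in the exact permutation test. Its pileup was 2.18 and 2.21 for del/del and 2.23 and 2.41 for del/fl. Both del/del libraries lay below both del/fl libraries, by 0.126 on average, and p was 0.333 in the exact permutation test, the smallest possible. Over all genes tested, 41.5% were likewise lower without overlap, so the Hoxc order was a common one in these libraries. Its enrichment over local background, as the authors' peak caller gave it, was 12.6 and 12.0 for del/del and 12.5 and 12.7 for del/fl, where the genotypes overlapped and p was 0.667 in the exact permutation test. The pileup of the chained domain, with peaks up to 3 kb apart joined, overlapped as well (exact permutation test, p = 1).

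The edges of the Hoxc peak varied more between libraries than those of the Hoxa peak. It began 36.5 and 69.5 kb before the lower-coordinate end of Hoxc13 for del/del and 31.6 and 46.3 kb before it for del/fl. It ended 55.0 and 41.0 kb past Hoxc4 for del/del and 54.9 and 55.0 kb past it for del/fl. The start and the end at the lowest coordinates both belonged to del/del 2. The stretch common to all libraries was 188.2 kb, or 78.3% of the union of 240.3 kb. Of the 100 kb below the union, 64.9 and 80.1% was covered for del/del and 76.2 and 81.6% for del/fl, at a pileup of only 0.593 to 0.701. Of the 100 kb above, 61.4 to 66.7% was covered at 0.946 to 1.09. With peaks up to 3 kb apart chained, the Hoxc domain grew to 330.2 and 379.7 kb for del/del and 378.3 and 349.7 kb for del/fl, from 14 to 24 peaks. The chained Hoxa domain measured 192.1 and 199.5 kb for del/del and 197.9 kb in each del/fl library.

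The nearest annotated genes outside the domains ranged from no cover to nearly complete cover. Next to Hoxa, the pseudogene Gm8129 had 30.7 and 0% cover for del/del and 22.4 and 40.7% for del/fl. Next to Hoxc, the lncRNA Gm36560 had 54.5 and 69.5% for del/del and 65.9 and 70.8% for del/fl, and the lncRNA Gm28876 had 96.3 to 100% over the 4 libraries. Of the nearest protein-coding genes, Calcoco1 had no peak, Smug1 had 24.5 to 26.9% and Hibadh had 0.920 to 2.497%.

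The ParaHox genes Gsx1, Pdx1 and Cdx2 are neighbours on chromosome 5 and were fully covered, but by separate peaks. Pdx1 encodes a factor needed for the pancreas, Cdx2 one for trophectoderm and intestine, and Gsx1 and Gsx2 factors of neural progenitors in the ventral forebrain and spinal cord. The Cdx2 peak was 28.7 and 28.4 kb for del/del and 25.2 and 28.6 kb for del/fl, with a pileup of 2.11 and 2.26 for del/del and 2.20 and 2.34 for del/fl. The Pdx1 peak was 24.3 and 25.2 kb for del/del and 23.9 and 22.3 kb for del/fl, with a pileup of 1.87 and 2.01 for del/del and 1.90 and 2.22 for del/fl. Pdx1 was the only one of the 29 genes tested for length whose del/del peaks were both longer than both del/fl peaks, an order that 22.8% of all genes tested showed.

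The Gsx1 peak was 16.3 and 10.3 kb for del/del and 17.7 and 16.0 kb for del/fl. Its pileup was 1.44 and 1.77 for del/del and 1.37 and 1.68 for del/fl. Gsx1 was the only one of the 29 HOXL genes tested for pileup with a higher mean in del/del. The shortest Gsx1 peak, in del/del 2, was also the one with the highest pileup. In that library a separate peak with a pileup of 0.637 followed after a gap of 0.933 kb. Between the Gsx1 and Pdx1 peaks lay 59.9 to 65.3 kb with 3 to 13 small peaks and 13.8 to 22.5% cover. Between the Pdx1 and Cdx2 peaks lay 5.63 to 10.1 kb. Gsx2, on chromosome 5 but apart from these, had a peak of 9.78 and 9.88 kb for del/del and 14.3 and 10.2 kb for del/fl, with 1.03 and 1.09 for del/del and 1.11 and 1.27 for del/fl. For Gsx2 neither length nor pileup overlapped between the genotypes, and both were lower in del/del. Of all genes tested, 22.1% were likewise lower without overlap in length and 41.5% in pileup.

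Cdx1, which encodes a caudal-type factor of the intestine and posterior embryo and lies on chromosome 18, was covered mostly at its ends. Cover was 27.9 and 29.3% for del/del and 29.5 and 36.7% for del/fl. The groups did not overlap but lay close together, and 14% of all genes tested were likewise lower without overlap. A peak of 4.33 and 4.70 kb for del/del and 4.16 and 4.32 kb for del/fl sat over its higher-coordinate end, at 1.59 and 1.75 for del/del and 1.75 and 2.05 for del/fl. A second peak of 6.94 to 8.64 kb lay just outside its other end.

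Mnx1 and the Gbx genes differed widely in strength of the mark. Mnx1, a motor neuron and pancreas factor, had a peak of 30.6 and 32.5 kb for del/del and 34.0 and 33.9 kb for del/fl. Its pileup was 2.24 and 2.27 for del/del and 2.08 and 2.47 for del/fl. That was within the range of the Hox clusters in 3 libraries and below it in del/fl 1. The genotypes overlapped in pileup but not in length, where 22.1% of all genes tested were likewise lower without overlap. Gbx2, a factor of the midbrain-hindbrain boundary, was fully covered at a lower pileup of 1.000 and 0.885 for del/del and 0.992 and 1.01 for del/fl. Its peak was 17.6 and 34.97 kb for del/del and 32.1 and 35.6 kb for del/fl, so del/del 1 alone was short. In that library another peak followed after a gap of 0.905 kb. Gbx1, its paralog, was covered over 36.9 and 39.7% for del/del and 33.2 and 47.1% for del/fl. The cover lay at the higher-coordinate end of Gbx1, where 98.6 to 100% of the 5 kb around the gene end was covered, against 0 to 26.3% around the other end. In del/fl 2 a peak of 13.2 kb covered this end without a break, whereas the other 3 libraries had a main peak of 7.88 to 8.11 kb and 2 or 3 small ones.

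Meox1 and Meox2, factors of somites and of muscle and vascular development, carried the least H3K27me3 of these genes. Meox1 had no peak in del/del 1 or in either del/fl library and 5.0% cover in del/del 2, from a pair of peaks of 0.501 and 0.586 kb with −log10 q of 1.03 and 1.52. These are near the calling threshold of the lists. Meox2 was covered over 7.1 and 10.3% for del/del and 9.1 and 10.9% for del/fl. Its cover lay at the gene's start, which was 96.1% covered in del/del 1 and 100% in the other libraries, and the 5 kb around its far end had 0% in all 4. The Meox2 peak had the lowest pileup of the 29 HOXL genes tested, at 0.688 and 0.559 for del/del and 0.718 and 0.707 for del/fl.

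**Figure D3:**
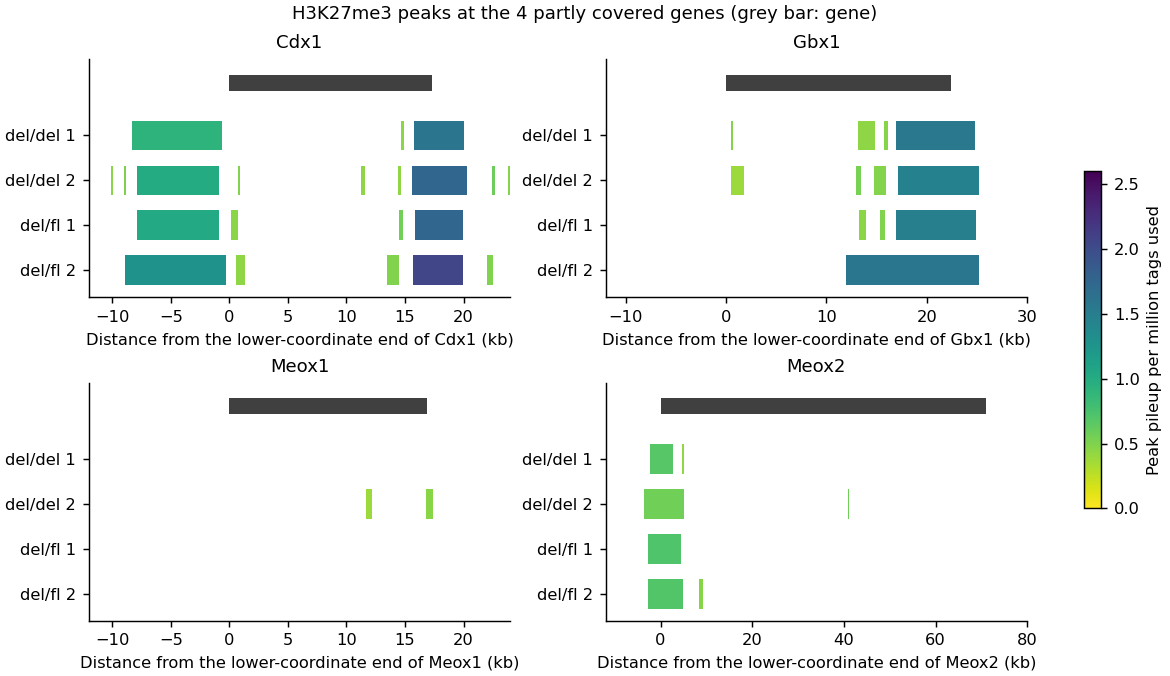
Deposited H3K27me3 peaks (coloured bars, pileup per 1000000 tags used) in each library at the 4 genes without full cover, with the gene as a grey bar and distance in kb on the horizontal axis. Cdx1 is marked mostly at its ends, Gbx1 at its higher-coordinate end, Meox2 at its start, and Meox1 only in del/del 2.

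In order of mean pileup over the gene windows, the Hoxa peak, Mnx1, the Hoxc peak and Cdx2 came first, at 2.08 to 2.57 in single libraries. Their ranges overlapped one another, so their order is not resolved. Pdx1 followed at 1.87 to 2.22, then Gsx1, Cdx1 and Gbx1 between 1.18 and 1.77, then Gsx2 and Gbx2 between 0.885 and 1.27, and Meox2 at 0.559 to 0.718. The del/fl 2 library, with the fewest tags, had the highest pileup at 9 of the 11 loci plotted, and whether depth bears on the differences in pileup was not tested.

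**Figure D4:**
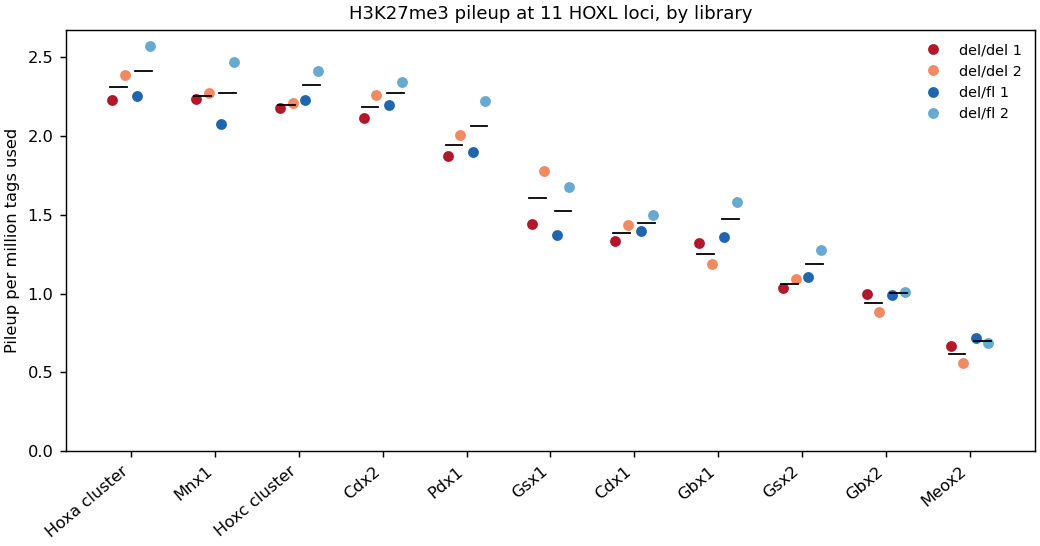
Pileup per 1000000 tags used (vertical axis) over the window of each locus, with 1 point per library and a black line for the mean of each genotype. The Hoxa, Mnx1, Hoxc and Cdx2 points lie between 2.08 and 2.57, and Meox2 lies lowest at 0.559 to 0.718.

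The comparison of del/del with del/fl asked whether loss of Smchd1 altered the mark at these genes. No gene of the 30 passed in cover, in pileup or in domain length with limma at an adjusted p under 0.05, and none had an unadjusted p under 0.05 in any of the 3. The share of all genes called was also small. For cover it was 0% higher and 0% lower of 11341, and 693 genes were higher and 256 lower by unadjusted p under 0.05. For pileup it was 0.0178% higher and 0.0712% lower of 5618, and 493 were higher and 886 lower by unadjusted p under 0.05. For domain length it was 0% in each direction of 5618, and 623 were higher and 199 lower by unadjusted p under 0.05. Of the genes counted by unadjusted p, 128 higher and 254 lower were autosomal in cover, 21 and 882 in pileup, and 52 and 199 in length. All 30 HOXL genes passed the filter for cover, and 29, all but Meox1, passed the filter for pileup and length, which asks for a peak in all 4 libraries.

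In cover, 26 genes were at 100% in every library and could not differ. Of the other 4, Cdx1 differed by −4.49 points (limma, 95% interval −17.1 to 8.12, adjusted p = 0.704). Gbx1 differed by −1.92 points (limma, −21.4 to 17.6, adjusted p = 0.946), Meox2 by −1.31 points (−8.46 to 5.85, adjusted p = 0.865) and Meox1 by 2.49 points (−3.81 to 8.79, adjusted p = 0.697). The interval for Gbx1 is wide, and its del/fl libraries lay far apart at 33.2 and 47.1%. Cdx1 was the only one of the 30 whose groups did not overlap, which 13.3% of all genes tested showed in the higher and 14% in the lower direction.

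In pileup, 28 genes had a lower and 1 a higher mean in del/del, and their median log2 difference was −0.06. These are counts of genes, of which 11 share the Hoxa peak and 9 the Hoxc peak. The median is the value of the Hoxa peak. The median over all autosomal genes tested was −0.13, so a lower pileup was general. When each library's pileup was divided by its autosomal median, 26 HOXL genes were higher, 3 were lower and the median log2 difference was 0.09. The direction of the HOXL genes therefore depends on the scale. That scaling moved the median of all autosomal genes to 0.03. It turned the calls over all genes from 1 higher and 4 lower to 560 higher and 27 lower, with none of the HOXL genes among them. Only 26 of the higher calls were autosomal, against all 27 lower ones. Groups did not overlap in 12 of 29 genes, all lower in del/del, against 16.7% higher and 41.5% lower over all genes. The share of the HOXL genes is thus near that of all genes tested, which include X-linked ones. The share without overlap among autosomal genes alone is not given here. Of those, 3987 of 4643 had a lower mean in del/del, against 4084 of 5618 over all genes tested. The 12 genes come from 4 loci, the Hoxc cluster, Gsx2, Meox2 and Gbx1. Without del/fl 2, 14 of the 29 were higher and 15 lower. With any other single library left out, 0 to 2 were higher and 27 to 29 lower. The 11 genes of the Hoxa peak were among the 14, with a shared log2 difference of 0.03.

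For the Hoxa peak the log2 difference in pileup was −0.06, with a limma 95% interval of −0.31 to 0.18 and an adjusted p of 0.705. For the Hoxc peak it was −0.08, with an interval of −0.29 to 0.13 and a limma adjusted p of 0.577. The differences farthest from 0 were at Gbx1 (−0.23, limma interval −0.50 to 0.04, adjusted p = 0.266), Meox2 (−0.20, limma interval −0.44 to 0.04, adjusted p = 0.274) and Gsx2 (−0.16, limma interval −0.42 to 0.10, adjusted p = 0.376). Those at Gbx1 and Meox2 are averages over all peaks in the gene window. The main Gbx1 peak alone had a pileup of 1.56 and 1.47 for del/del and 1.49 and 1.58 for del/fl, which overlapped, with a difference of means of −0.0166. At Mnx1 the log2 difference was −0.01 (limma interval −0.27 to 0.25, adjusted p = 0.966).

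**Figure D5:**
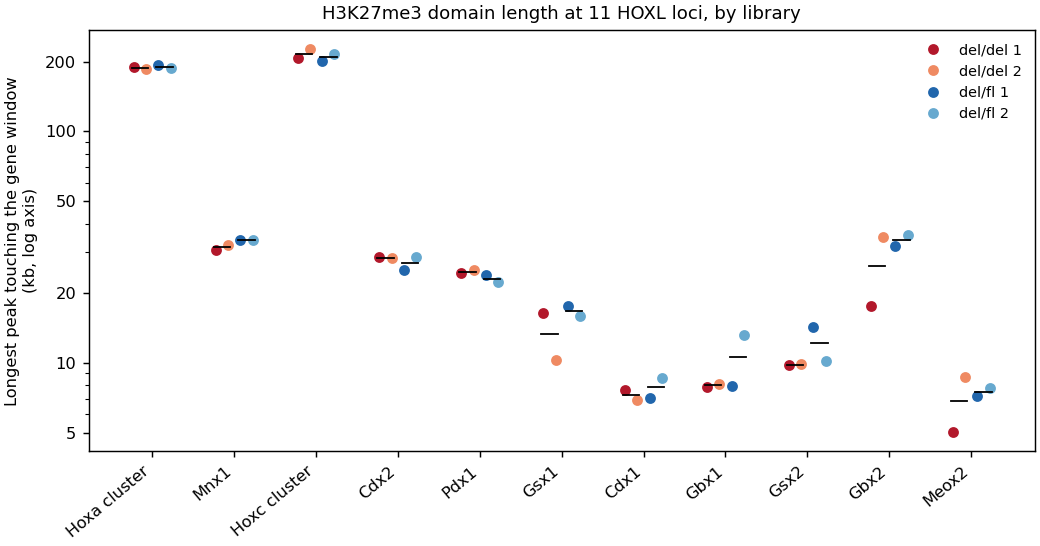
Length in kb (vertical log axis) of the longest peak touching each locus, with 1 point per library and a black line for the mean of each genotype. The Hoxc and Hoxa peaks, at 187 to 226 kb, stand above the others, and the Gbx2 point of del/del 1 lies at 17.6 kb, below the other 3.

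In domain length, 11 genes had a higher and 18 a lower mean in del/del, with a median log2 difference of −0.01 against −0.14 over all autosomal genes. The 9 Hoxc genes share a peak and are among the 11. Hoxa genes and Evx1 share a peak and are among the 18, and their value is the median. Without del/del 2 the split was 2 higher and 27 lower. With any other single library left out, 12 or 13 were higher and 16 or 17 lower. Groups did not overlap for 1 gene in the higher direction (Pdx1) and 2 in the lower (Gsx2 and Mnx1), where the shares over all genes were 22.8% and 22.1%. The Hoxa interval was narrow, at −0.17 to 0.14 around −0.01 (limma, adjusted p = 0.950). That of Hoxc was −0.17 to 0.26 around 0.05 (limma, adjusted p = 0.860). The differences were −0.45 at Gbx2 (limma interval −1.63 to 0.73, adjusted p = 0.747) and −0.37 at Gsx1 (limma interval −1.24 to 0.50, adjusted p = 0.714). In each a single del/del library was short, and its peak was split from another by 0.905 kb at Gbx2 and 0.933 kb at Gsx1.

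Lists of related genes gave the setting. All 20 genes of the Hoxb and Hoxd clusters with Evx2 were fully covered in every library, like the Hoxa and Hoxc genes, and their median log2 difference in pileup was also −0.06, with 20 lower. With limma 0 of 20 passed in either direction in any measure. Lack of a peak was common, at 23273 of all 34614 genes, and whether any list differed from that share was not tested. Of 25 genes for Polycomb proteins 16 had no peak, and of 9 TALE genes, whose products bind DNA together with Hox proteins, 8 had none. Meis3 was the TALE exception at 0 to 4.26%. Of 7 genes for H3K27 demethylases and trithorax proteins, which oppose Polycomb, 6 had none and Kdm6b had 0 to 2.66%. All 16 retinoic acid genes had a peak. Of the genes for retinoic acid degrading enzymes, Cyp26a1 and Cyp26c1 had 83.2 to 94.0% and Cyp26b1 had 36.1 to 43.1%. The receptor genes Rara, Rarb and Rarg had 0 to 3.31%, and Rxra, Rxrb and Rxrg had 0 to 6.75%. Crabp1 had 67.1 to 73.3% and Aldh1a2 had 33.9 to 45.8%. Of 13 forebrain patterning genes, 6 were fully covered in all 4 libraries (Otx2, Six3, Nkx2-1, Dlx1, Dlx5 and Dlx6). None of these listed genes passed in cover, pileup or length with limma at an adjusted p under 0.05 in either direction.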

How the data were processed

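H3K27me3 peak lists of 4 libraries, 2 del/del and 2 del/fl, were used, with 4 whole-cell extract samples entering as their controls. The submitters' processing notes name bcl2fastq, Bowtie 0.12.9 and the build mm10. Broad peaks were called in each library with MACS2 2.1.0.20140616 at a q-value of 0.05, keeping 1 tag per position with local windows of 1000 and 10000 bp, per the file headers. Pileup was deposited as a signal, the stacked tags averaged over a peak, per the file headers. Fold enrichment is deposited as the ratio to local background, and p-value and q-value as −log10, by the authors' peak caller. Control tags numbered 20770551 and 31629404 for del/del and 19579060 and 15525700 for del/fl, and lists were not split by parental allele.

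Gene coordinates came from RefSeq GRCm38.p6, the assembly of mm10. Cover, pileup per 1000000 tags used and longest peak were computed over each gene with 2.5 kb at both ends, counting peaks that overlap by at least 1 bp. limma 3.58.1 (R 4.3.3; trend and robust options, Benjamini-Hochberg) was fitted over 11341 genes with a peak in any library for cover, and over 5618 with a peak in all 4 for log2 pileup and log2 length. Python 3.11.15 with pandas 2.3.3, numpy 2.4.6, scipy 1.17.1 and matplotlib 3.10.9 did the rest. The Hoxa and Hoxc peaks were compared by exact permutation. The fits were checked on simulated data. Having 2 libraries per genotype limits the precision.

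The named genes were all 30 HOXL genes, the nearest annotated genes outside the Hoxa and Hoxc domains, and listed genes that passed a test or that a count needed, and 1 gene that this rule selects is not reported here. The genes and lists were chosen with earlier results of these data known. Other genes in the lists' paragraph were picked as examples after their values were seen, as was Skap2. Libraries with the same number had weakly correlated deviations, and the labels do not say that numbers pair them, so fits were unpaired. Alternatives covered the peak threshold, window, filters, scaling, merging and single libraries left out. Whether the number of fully covered genes held under other windows, thresholds and libraries was added after the data were seen. Allelic signal was not analysed here.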

Additional observations from a re-analysis of the deposited data

How the results depend on the processing

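No HOXL gene passed under any alternative with one exception: without del/del replicate 1, Meox1 was called in cover with limma (4.98 points, adjusted p = 0.0143), resting on the pair of small peaks in del/del 2, so the number of HOXL genes called in cover ranged from 0 to 1 when single libraries were left out. Over all genes, the 0 calls in cover became 102 with peaks of −log10 q of at least 5, 17 with a mean cover of at least 5%, and 338 to 1743 with single libraries left out. The 5 calls in pileup became 13 with the stricter peaks, 2 with 5 kb flanks, 0 over the 11341 genes with a peak in any library, with uncovered bases at 0 and a pseudocount of 0.1 (choices made together), 587 when divided by the autosomal median, and 8 to 249 with single libraries left out. The 0 calls in length became 3 over autosomal genes and 126 with peaks chained, and stayed at 0 with single libraries left out. Autosomal genes made up 8 higher and 35 lower of the 102 calls in cover with the stricter peaks. They made up 26 higher and 27 lower of the 587 in pileup, and 1 higher and 8 lower of the 126 in length. The causes were not tested. With the replicate number as a block, calls were 0 in cover, 0 in pileup and 0 in length. The correlation of deviations between libraries of the same number was 0.184 in cover, 0.108 in pileup and 0.1001 in length.

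The Hoxa domain length difference ranged from −4.76 to 0.934 kb with single libraries left out, turning positive without del/fl replicate 1. The Hoxa domain pileup difference ranged from −0.263 to 0.0530, turning positive without del/fl replicate 2, and was 0.231 in units of the autosomal median. The Hoxc domain length difference ranged from −2.45 to 16.5 kb, was negative without del/del replicate 2 (−2.45) or without del/fl replicate 1 (−0.387), and was −9.12 kb with peaks chained. The Hoxc domain pileup difference ranged from −0.217 to −0.0358 and was 0.177 in units of the autosomal median. In a simulation with normal noise, 28 of 100 partly covered genes changed by 20 points of cover were found. Fully covered genes were not among those changed, so the simulation does not bear on them. The fit of cover over all genes without a filter could not be fitted.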

Other observations

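Skap2, which encodes a cytoplasmic adaptor protein and is the nearest protein-coding gene on the Hoxa2 side of the Hoxa domain, was singled out after its values were seen. It lies at chr6:51859165-52012549, 129.6 kb from the domain, across the stretch without peaks. Its longest peak measured 49.3 and 43.8 kb for del/del and 92.0 and 92.1 kb for del/fl. Its cover was 69.8 and 76.9% for del/del and 87.1 and 89.8% for del/fl. Both measures were lower in each del/del library than in each del/fl library. Of all genes tested, 22.1% were likewise lower in length of the longest peak and 14% in cover. In pileup the log2 difference was −0.28 (limma adjusted p = 0.157). It was −0.12 (limma adjusted p = 0.590) when pileup was divided by the autosomal median. The log2 difference in length was −0.99 (limma 95% interval −1.35 to −0.62, adjusted p = 0.132), and over the alternatives the adjusted p ranged from 0.0817 to 0.809. The highest of these came with peaks up to 3 kb apart chained, where Skap2 lay in domains of 99.7 and 110 kb for del/del and 100.2 and 157 kb for del/fl. The difference in cover was −15.1 points (limma adjusted p = 0.497), and with peaks of −log10 q of at least 5 it was −23.4 points (limma adjusted p = 0.0475). Over the alternatives for cover the adjusted p ranged from 0.0475 to 0.962.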
